A study of Mus musculus with 6 samples.

Results

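The transcriptome of wild-type mouse embryonic fibroblasts was described from 3 cultures, numbered 10, 12 and 16, out of 6 cultures in the series. They are the cultures whose genotype label reads wild type (Lztr1 +/+); the other 3 cultures carry 1 mutant copy of Lztr1 (Lztr1 +/-), and none of their values is used here. Embryonic fibroblasts are primary connective-tissue cells grown out of dissociated mouse embryos, so a culture is a mixture and can keep cells of other lineages. The cells had a C57BL/6 strain background, were at passage P2-5 and were grown on uncoated plastic in DMEM with glutamine, and messenger RNA was sequenced from total RNA. Nothing in the labels says that the 3 cultures came from separate embryos or litters, and no batch is named, so their spread may be partly technical. Sex-linked transcripts, given below, differed between culture 12 and the other 2 cultures. All cultures belong to 1 group, so every comparison below is between single cultures or between genes and carries no test. Of 51826 genes in the tables, 13283 (25.6%) reached 1 TPM (transcripts per 1e6 transcripts) in all 3 cultures, the level taken here as detection, and among protein-coding genes 12445 of 21793 (57.1%) did so. TPM is corrected for gene length, so levels of different genes can be set side by side. Libraries held 14030349, 11100487 and 11025286 expected counts in cultures 10, 12 and 16, and 3 counts of a gene of 1 kb were worth 0.349, 0.448 and 0.429 TPM, which covers counting error only. Values are given throughout in the order of cultures 10, 12 and 16, with the mean ± SD over these 3 cultures. Directions between cultures are those in TPM; expected counts per 1e6 counts (CPM), which are not corrected for length, are given beside single genes where they turn a stated direction or shrink a range by more than 1.5 times.

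Fibroblasts make and remodel the extracellular matrix. They secrete fibrillar collagens that are folded and hydroxylated in the endoplasmic reticulum and cross-linked outside the cell, and they pull on this matrix through integrins and an actin and myosin cytoskeleton. Cells taken from embryos also keep parts of the embryonic programme, such as imprinted growth genes that are shut down after birth and the Hox code that records position along the body and limb axes.

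The genes that define the fibroblast label were present in every culture. H19, an imprinted non-coding RNA of embryonic mesoderm, ranked 2 among all genes at 8569, 8842 and 7223 TPM (mean 8211 ± 867); it lies on chromosome 7 from 142575529 to 142578143 on the minus strand (mm10). Col1a1 and Col1a2 encode the chains of type I collagen, the main fibre of connective tissue. Col1a1 ranked 34 at 3265, 3356 and 2398 TPM (mean 3006 ± 529), and Col1a2 ranked 82 at 2236, 2298 and 1549.8 TPM (mean 2028 ± 415). Both chains were lower in culture 16 than in the other 2 cultures. Prrx1, a homeobox factor of limb and craniofacial mesenchyme, measured 201, 214 and 179 TPM (mean 198 ± 17.2). Pdgfra, the receptor for platelet-derived growth factor that marks mesenchymal progenitors, was less abundant at 46.7, 51.4 and 30.5 TPM (mean 42.9 ± 11) and was again lowest in culture 16. All 18 mesenchymal markers examined were detected, from H19, Vim, Col1a1 and Col1a2 at the top to Dpt at 3.88 ± 0.406 TPM and Nt5e at 2.28 ± 0.471 TPM. Vim, the intermediate filament of mesenchymal cells, measured 3292, 3148 and 3713 TPM (mean 3384 ± 294) and unlike the collagens was highest in culture 16. The proteoglycan gene Lum had the largest range of the list, at 89.2, 86.2 and 41.5 TPM. Lztr1, the gene that names the series and an adaptor of the CUL3 ubiquitin ligase, measured 63.99, 63.6 and 56.7 TPM (mean 61.4 ± 4.08), which places it at rank 2628.

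Transcripts were concentrated in a small share of the detected genes. Ordered by mean TPM, 72 genes held 25% of all transcripts, 356 held 50%, 1854 held 75% and 4796 held 90%. In expected counts, which are not corrected for length, 826 genes held 50%. The first 10 genes held 6.69% and the first 25 held 12.7% ± 0.349. In all 3 cultures 8303 genes reached 10 TPM, 1430 reached 100 TPM and 151 reached 1000 TPM. Protein-coding genes held 94.1% of TPM, pseudogenes 3.83% (382 detected) and long non-coding RNAs 1.77% (386 detected). The share of each culture's transcripts plotted against gene rank gave 3 nearly overlapping curves.

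**Figure D1:**
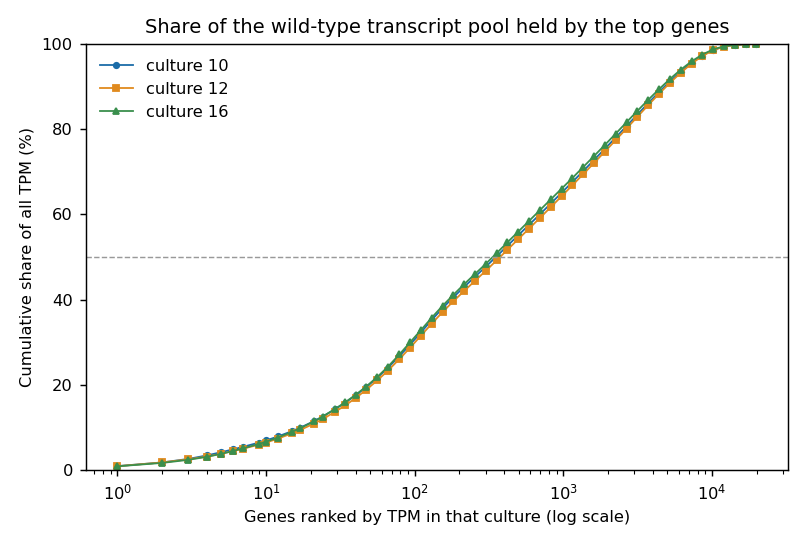
Cumulative share of all TPM (vertical axis, %) against gene rank (horizontal axis, log scale), with genes ranked by TPM within each culture; the dashed line marks 50%. The curves of the 3 cultures lie close together and cross the dashed line near the 356 genes of the mean profile.

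Genes of protein synthesis, the actin cytoskeleton and mitochondria made up most of the 25 most abundant genes. Eef1a1, the elongation factor that brings transfer RNAs to the ribosome, ranked 1 at 9417, 9171 and 8916 TPM (mean 9168 ± 251). Acta2, the smooth-muscle actin that marks contractile fibroblasts, ranked 8 at 5188, 5037 and 5220.3 TPM (mean 5148 ± 97.8), above the cytoplasmic actins Actg1 at 5002 ± 397 TPM and Actb at 3613 ± 336 TPM. Its mean exceeded that of Actg1 by less than the SD of Actg1, and in culture 16 Actg1 was the higher of the pair, so these cultures give them no order. The ribosomal protein genes of the group were Rplp1 at 6697 ± 214 TPM, Rpl13a at 4784 ± 23.9 TPM, Rps2 at 4661 ± 243 TPM, Rps12 at 4264 ± 194 TPM, Rps24 at 3937 ± 59.1 TPM, Rpl41 at 3925 ± 98.1 TPM and Rps27 at 3907 ± 35.9 TPM. Tpt1, a growth-related calcium-binding protein, measured 4543 ± 73.3 TPM, Tmsb4x, which sequesters actin monomers, 4161 ± 580.4 TPM, and Lgals1, a secreted galactose-binding lectin, 4159.6 ± 25.8 TPM. Ftl1, the ferritin light chain that stores iron, measured 3635 ± 225 TPM, Ppia, a protein-folding isomerase, 3598 ± 95.5 TPM, and Tpm1, a tropomyosin of actin cables, 3479.8 ± 163 TPM. Igf2, the fetal growth factor that neighbours H19 in the same imprinted domain, ranked 24 at 3587, 3459 and 3482 TPM (mean 3509.5 ± 67.8). The remaining 6 were mt-Atp8, mt-Co1 and mt-Cytb of the mitochondrial genome and the pseudogenes Gm28661, Gm10925 and Gm28437. Spread was small in this group: Rpl13a ranged only from 4758 to 4805 TPM and Lgals1 from 4141 to 4189 TPM. Tmsb4x had the largest coefficient of variation of the 25, with 3764, 3892 and 4827 TPM.

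**Figure D2:**
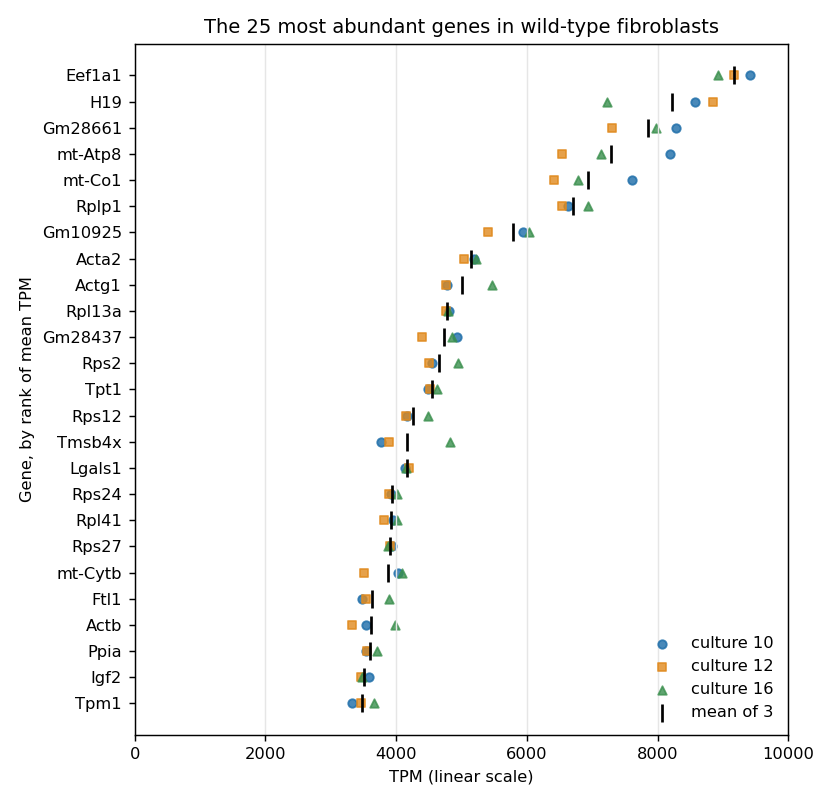
TPM (horizontal axis, linear scale) of the 25 genes with the highest mean TPM, 1 row per gene; coloured markers are the 3 cultures and black ticks their mean. Most genes have the 3 cultures close together, while H19, mt-Atp8, mt-Co1 and Tmsb4x are spread more widely.

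The 3 pseudogenes among the most abundant genes belong to a block of 6 unprocessed pseudogenes on chromosome 1, from 24612407 to 24616197 in mm10, a span of 3791 bases. This block is a nuclear insertion of mitochondrial DNA: each pseudogene matched 1 mitochondrial gene at 99.7% to 100% of its aligned bases. Gm28661 (chromosome 1, 24614885 to 24615565) is a copy of mt-Co2, a subunit of cytochrome oxidase. It was identical over 681 aligned bases, as the first 60 bases of both transcripts show, so no read from this stretch can be placed by sequence:

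mt-Co2: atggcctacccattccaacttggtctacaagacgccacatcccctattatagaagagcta

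Gm28661: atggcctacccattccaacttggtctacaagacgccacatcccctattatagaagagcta

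Gm28438 and mt-Nd3, a subunit of complex I, differed at 1 of 345 aligned bases, T3C, counted from 1 at the first base of the mt-Nd3 transcript and shown in capitals:

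mt-Nd3: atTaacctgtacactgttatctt

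Gm28438: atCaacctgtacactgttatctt

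Gm28661 was listed at 8287, 7299.7 and 7980.2 TPM and mt-Co2 at 257, 325 and 318 TPM. The same order held in every culture for Gm10925 over mt-Atp6, Gm28437 over mt-Co3, Gm10222 over mt-Nd4l and Gm28438 over mt-Nd3. Gm10925 was listed at 5932, 5407 and 6027 TPM and mt-Atp6, a subunit of ATP synthase, at 839, 505 and 708 TPM. For the partial copy Gm29216 the mitochondrial gene was the higher, with mt-Co1 at 7606, 6410.2 and 6779 TPM and Gm29216 at 1967, 1951 and 2621 TPM. How reads that match both places were divided was set by the authors' estimation, so the levels within each pair are uncertain. The places of mt-Co1, Gm28661, Gm10925 and Gm28437 among the 25 most abundant genes carry the same uncertainty, as do the separate shares of mitochondrial genes and copies given next. The sum of Gm28661 and mt-Co2 was 8156 ± 476 TPM, and that of Gm29216 and mt-Co1 was 9111 ± 656 TPM. Genes of the mitochondrial genome held 3.12% ± 0.28 of TPM and the 6 copies 2.32% ± 0.142, which together made 5.43% ± 0.415; in expected counts the mitochondrial genes held 1.42%. All 15 mitochondrial genes examined were detected. Those not matched to a pseudogene of the block over 100 bases or more included mt-Atp8 at 8191, 6538 and 7131 TPM (mean 7287 ± 837), mt-Cytb at 4022, 3502 and 4094 TPM (mean 3873 ± 323) and mt-Nd1 at 3516, 3049 and 3679.5 TPM (mean 3415 ± 327). All 3 were lowest in culture 12. However, mt-Atp8 (7766 to 7969 of the mitochondrial genome) overlaps mt-Atp6 (7927 to 8607), whose copy is Gm10925, so its level is also uncertain. The level of mt-Atp8 rests on only 1828, 1080 and 1228 expected counts, where mt-Cytb had 32390, 21923 and 26810.

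Cytosolic ribosomal protein genes held 18.03% ± 0.348 of TPM (17.9%, 17.8% and 18.4% by culture). As these genes are short, their share of expected counts was 5.53%. Of the 85 genes, 83 were detected; Rpl3l and Rpl10l, tissue-restricted paralogs, were listed at 0 in every culture. Their spread between cultures was low: the median coefficient of variation was 2.798%, where genes at 1000 TPM or more had a median of 3.64%. Rplp0, a stalk protein of the large subunit, varied least of all genes at 10 TPM or more, with 2828, 2831 and 2834 TPM. The widest range in the list was that of Rps27l, a p53-responsive paralog of Rps27, with 730.3, 834 and 917 TPM. Messenger RNAs of ribosomal proteins are known to begin with a cytosine followed by a pyrimidine tract, the terminal oligopyrimidine (TOP) motif through which mTOR signalling controls their translation. Promoter windows from RefSeq (GRCm38.p6, 250 bases before to 50 after each annotated start, on the gene's strand) were matched for 20177 genes. A C at the start followed by 4 bases that are each C or T was found in 14 of 63 ribosomal protein genes with a window (22.2%), in 16 of 104 genes at 1000 TPM or more (15.4%) and in 2.84% of all matched genes. Most of the 16 abundant genes were themselves ribosomal protein genes, so these shares overlap and do not describe abundant genes in general. The match asks for the exact annotated base, so a start placed a few bases away is missed. The 30 bases around the start of 4 of these genes are shown with the 5 matched bases in capitals:

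Rps27: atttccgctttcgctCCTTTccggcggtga

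Rps18: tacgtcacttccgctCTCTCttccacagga

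Rps6: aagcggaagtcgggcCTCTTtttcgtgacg

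Rpl38: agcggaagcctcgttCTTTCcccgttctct

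These windows lie at chr3:90213634-90213663 (Rps27, minus strand), chr17:33955651-33955680 (Rps18, minus), chr4:86857353-86857382 (Rps6, minus) and chr11:114668565-114668594 (Rpl38, plus). The 4 genes measured 3907 ± 35.9 TPM, 2914 ± 85.2 TPM, 2469 ± 14.4 TPM and 2055 ± 73.7 TPM in the same order. Translation elongation factors followed the ribosomal genes, with 10 of 10 detected. Eef1b2 measured 1889 ± 87.9 TPM, Eef2 1656 ± 43.1 TPM and Eif5a 1516 ± 155 TPM, while Eef1a2, the form of nerve and muscle, was at 3.35, 3.27 and 1.68 TPM, far below its paralog Eef1a1.

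Collagen genes held 1.01% ± 0.154 of TPM, with 35 of 41 chains detected and summed levels of 10943, 10986 and 8305 TPM. Collagen transcripts are long, and their share of expected counts was 3.32%. After Col1a1 and Col1a2 came Col3a1, the chain of the fine fibrils of embryonic skin and vessels, at 1608, 1626 and 1121 TPM (mean 1452 ± 286). Col12a1, which decorates type I fibrils, measured 521, 490.3 and 506 TPM (mean 506 ± 15.2). The fibril-nucleating chains Col5a2 and Col5a1 measured 441 ± 27.8 TPM and 353 ± 42.6 TPM, the basement-membrane chains Col4a1 and Col4a2 446 ± 45.9 TPM and 292 ± 41.1 TPM, and the beaded-filament chains Col6a1, Col6a2 and Col6a3 274 ± 54.8 TPM, 221 ± 52.4 TPM and 194 ± 41.4 TPM. Col1a1 exceeded Col1a2 in every culture, as Col4a1 did Col4a2. The type V chains stood the other way round, with Col5a1 at 373, 382 and 304 TPM below Col5a2 at 447, 466 and 411 TPM. Cartilage chains were present, with Col2a1 at 162, 147 and 198 TPM (mean 169 ± 26.4) and Col11a1 at 126, 124 and 137 TPM (mean 129 ± 6.96), both highest in culture 16. In CPM Col2a1 was again highest there, but Col11a1 was lowest, at 503, 498 and 488 CPM. The largest range among detected chains was that of Col14a1, at 21.5, 25.1 and 12.7 TPM. Below 1 TPM in every culture were Col4a3 and Col4a4, the chains of kidney and lung basement membrane, and Col19a1. Of the 35 detected chains, 23 were lowest in culture 16, and their median there was -0.31 on the log2 scale against the mean of the other 2 cultures. Among all detected genes 52% were lowest in culture 16 and the median was -0.09.

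Every enzyme and chaperone examined that modifies collagen was detected (26 of 26). Serpinh1, the collagen-specific chaperone HSP47, was highest at 2787, 2839.7 and 2649 TPM (mean 2759 ± 98.4). It was followed by P4hb, the protein disulfide isomerase that is also a subunit of prolyl hydroxylase, at 980.4 ± 58.6 TPM, Ppib, a peptidyl-prolyl isomerase of the endoplasmic reticulum, at 893 ± 45.8 TPM and Lox, lysyl oxidase, at 593, 609 and 578 TPM (mean 593 ± 15.6). Lox and its relative Loxl2 at 307, 320.4 and 321 TPM differed little between cultures, while the procollagen protease gene Adamts2 had the widest range of the list, at 20.4, 24.2 and 13.4 TPM. The median coefficient of variation over the list was 6.7%, below the 17.6% of the collagen chains themselves. Secretory-pathway genes and chaperones, with 33 of 33 detected, summed to 21011, 21701 and 21426 TPM. Hsp90ab1 and Hspa8 of the cytosol measured 1923 ± 43.2 TPM and 1748 ± 99.9 TPM, and Calr, Hspa5 and Hsp90b1 of the endoplasmic reticulum 1707 ± 75.9 TPM, 1196 ± 43.6 TPM and 1026 ± 17.7 TPM.

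Of the other matrix genes, 48 of 51 were detected. Sparc, a collagen-binding glycoprotein, measured 2731, 2837 and 2499 TPM (mean 2689 ± 173), Bgn, the proteoglycan biglycan, 1799, 1876 and 1649 TPM (mean 1774 ± 116), and Fn1, fibronectin, 1332, 1281 and 1362 TPM (mean 1325 ± 41.2). Fn1 was highest in culture 16 in TPM and lowest there in CPM, at 5066, 5237 and 4147 CPM. Thbs1, Ccn1 and Ccn2 are secreted genes known as YAP and TGF-beta targets, and all 3 were highest in culture 16: Thbs1 measured 738, 719 and 1090.2 TPM, Ccn1 609.6, 589 and 849.7 TPM and Ccn2 475, 473 and 954 TPM. Other members were lowest in culture 16. Eln, elastin, measured 526, 563 and 302 TPM, Postn, periostin, 714, 726 and 446 TPM, and Dcn, the collagen-binding proteoglycan decorin, 169, 167 and 79.9 TPM. Of 48 detected members, 30 were lowest and 14 highest in culture 16, where 52% and 26.9% of all detected genes were. Genes of elastic fibres did not share 1 direction: Ltbp2, a microfibril-associated protein, measured 51.6, 57.1 and 65.2 TPM and was highest in culture 16. Ccn2, Eln, Postn, Dcn and Ltbp2 were singled out after their values were seen. Matrix proteases and their inhibitors were detected for 28 of 31 genes. The lysosomal proteases Ctsd and Ctsl measured 492 ± 14.9 TPM and 315 ± 26.8 TPM, and Mmp14, a collagenase anchored in the cell membrane, 381, 390.1 and 333 TPM (mean 368 ± 30.5). The protease inhibitor Serpine2 measured 306 ± 38.9 TPM. The interstitial collagenase Mmp13 and stromelysin Mmp3 were low at 3.03 ± 0.327 TPM and 5.01 ± 2.68 TPM, and Timp4 was below 1 TPM in every culture.

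Adhesion genes were dominated by 1 integrin subunit. Itgb1, the beta subunit shared by most collagen and fibronectin receptors, measured 682, 703 and 738 TPM (mean 708 ± 28.6) and held 56.7% ± 1.35 of the summed level of 24 integrin genes. Itgb5 at 146 ± 14.4 TPM, Itga5, the fibronectin receptor chain, at 132 ± 11.5 TPM and Itgav, which pairs with Itgb5, at 77.4 ± 2.97 TPM came next. The collagen-binding alpha chain Itga11 was 28.5, 29.8 and 18.1 TPM, above Itga1 at 8.54 ± 1.09 TPM and Itga2 at 1.303 ± 0.1097 TPM. Itga3, a laminin receptor chain, had the widest range among detected subunits, with 13.5, 12.5 and 23.2 TPM, highest in culture 16. Itgb6, Itgb7 and Itgax, subunits of epithelium and leukocytes, were below 1 TPM in every culture. Cadherins were led by Cdh11, the mesenchymal cadherin, at 322, 332 and 263 TPM (mean 306 ± 37.7), followed by Fat1 at 87.3 ± 14.5 TPM, Cdh2 (N-cadherin) at 67.9 ± 2.02 TPM and Cdh3 at 51.8 ± 2.91 TPM. The epithelial cadherin Cdh1 was at 3.36, 5.77 and 6.5 TPM.

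Genes of the contractile form of fibroblasts were abundant. All 6 actins were detected, and their shares of summed actin transcripts were 34.8% ± 1.11 for Acta2, 33.8% ± 1.19 for Actg1, 24.4% ± 1.15 for Actb, 4.31% ± 0.542 for the enteric form Actg2, 1.86% ± 0.462 for the cardiac form Actc1 and 0.813% ± 0.259 for the skeletal form Acta1. The shares of Acta2 and Actg1 differed by less than their SD. All 25 contractile genes were detected, summing to 20095, 20040.5 and 21551 TPM. After Acta2 and Tpm1 the highest were Tagln, an actin-bundling protein of smooth muscle, at 2298, 2219 and 2733 TPM (mean 2417 ± 277) and Myl9, a regulatory myosin light chain, at 1120.3, 1182 and 1094 TPM (mean 1132 ± 44.99). Genes of mature smooth muscle were far lower, with the myosin heavy chain Myh11 at 34.9 ± 6.92 TPM and Lmod1 at 21.4 ± 1.37 TPM. The list held 15 genes that were highest in culture 16, with a median of 0.09 on the log2 scale against the others. Among all detected genes 26.9% were highest in culture 16 and the median was -0.09. A CArG box, the sequence bound by serum response factor, was found on either strand of the promoter window in 3 of 22 contractile genes with a window (13.6%) and in 1.75% of all matched genes. Shares near this size were not limited to this list. The box stood in 2 of 12 cardiac markers, 2 of 14 skeletal muscle markers and 2 of 22 imprinted genes with a window, and in 0 of 9 smooth muscle and pericyte markers. The 3 matches among contractile genes are shown with the box in capitals:

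Myl9: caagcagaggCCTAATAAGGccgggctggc

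Cnn2: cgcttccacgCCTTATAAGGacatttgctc

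Vcl: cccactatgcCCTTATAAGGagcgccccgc

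They lie at chr2:156775293-156775322 for Myl9, chr10:79988534-79988563 for Cnn2 and chr14:20929161-20929190 for Vcl, all on the plus strand in GRCm38.p6. Myl9 measured 1132 ± 44.99 TPM, Cnn2, a calponin, 636 ± 24.9 TPM and Vcl, vinculin, 212 ± 16.3 TPM. Among tubulins Tuba1a held 36.2% ± 2.23 of the summed level, Tuba1b 23.8% ± 2.13 and Tubb5 17.9% ± 0.181. Tuba1a, a tubulin known from neurons and embryonic tissue, measured 2909, 2920.3 and 2395 TPM (mean 2741 ± 300.2), and Tubb3, the neuronal beta form, 107, 95.9 and 64.8 TPM; both were lowest in culture 16. Tuba8 and Tubb1 were below 1 TPM in every culture. Among intermediate filaments and lamins Vim was followed by Lmna at 433 ± 15.2 TPM, Lmnb1 at 152 ± 9.03 TPM and Nes at 94.1 ± 5.76 TPM, and Nefh was below 1 TPM in every culture. Glycolysis genes (26 of 31 detected) were led by Gapdh at 2931, 2952 and 3171 TPM (mean 3018 ± 133), Eno1 at 1187 ± 101 TPM, Pkm at 1084 ± 48.1 TPM and Ldha at 869 ± 63 TPM. Their germ-line relatives Pgk2, Gapdhs and Ldhc were listed at 0 in every culture.

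Imprinted growth genes were among the most abundant transcripts, with 27 of 29 detected and 1.82% of TPM in all. After H19 and Igf2 came Gnas, the stimulatory G protein alpha subunit, at 1718, 1715 and 1557 TPM (mean 1663 ± 92.1) and Rian, a non-coding RNA of the Dlk1-Meg3 domain, at 982, 1129.6 and 883 TPM (mean 998 ± 124). Dlk1 itself, an inhibitor of fat-cell differentiation, measured 918, 896 and 699.6 TPM (mean 838 ± 120.2) and Meg3 579, 530.2 and 537 TPM (mean 549 ± 26.2). The growth inhibitors Grb10 and Cdkn1c measured 501 ± 53.01 TPM and 343 ± 63.1 TPM, and Igf2r, which clears IGF2, 164 ± 22.1 TPM. In TPM Igf2 stayed between 3459 and 3587, while H19 was lower in culture 16 than in the other 2 cultures. In CPM both were highest in culture 12 and lowest in culture 16, Igf2 at 6025, 6221 and 5080.4 CPM and H19 at 10785, 11014 and 9298 CPM. Phlda2, a placental growth suppressor, had the largest range at 1.23, 1.64 and 5.56 TPM, and Kcnq1ot1 and Slc22a18 stayed below 1 TPM. Of 27 detected members, 19 were lowest in culture 16, with a median of -0.27 on the log2 scale. Among all detected genes 52% were lowest there, with a median of -0.09. In the rest of the IGF pathway all 21 genes reached detection. Igf1 was far below Igf2, at 53.9, 51.9 and 40.95 TPM (mean 48.9 ± 6.95). The binding proteins Igfbp2, Igfbp4, Igfbp7 and Igfbp3 measured 469.7 ± 83.2 TPM, 409.9 ± 92.6 TPM, 397 ± 36.3 TPM and 355 ± 97.1 TPM, and the receptors Igf1r and Insr 23.4 ± 2.03 TPM and 9.31 ± 1.48 TPM. Igfbp1, a binding protein made by liver, had the widest range, with 3.44, 20.4 and 6.73 TPM.

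Proliferation genes were detected throughout and differed little between cultures. All 30 replication genes and all 30 mitosis genes passed 1 TPM everywhere. Their sums were 1917, 1903 and 1870.2 TPM for replication and 2445, 2406 and 2349 TPM for mitosis. Pcna, the sliding clamp of DNA polymerases, measured 214, 212 and 211 TPM (mean 212 ± 1.62), followed by the ribonucleotide reductase subunits Rrm2 at 180.3 ± 16.99 TPM and Rrm1 at 150.0 ± 13.01 TPM and by Tyms, thymidylate synthase, at 128 ± 10.8 TPM. Among mitosis genes Cdk1, the mitotic kinase, measured 282, 287 and 303 TPM (mean 291 ± 11.1), Ube2c 218 ± 7.21 TPM, Top2a, which untangles chromosomes, 183 ± 7.97 TPM and Birc5, survivin, 151 ± 2.52 TPM. The median coefficient of variation of the mitosis genes was 4.26%, where all detected genes had 10.4% and genes between 10 and 100 TPM 8.87%. The letters CCAAT, a site of the factor NF-Y known from cell-cycle promoters, stood on either strand of the window in 21 of 25 mitosis genes with a window (84%), in 16 of 25 replication genes (64%) and in 41.5% of all matched genes. Shares of this size were not limited to these lists: the letters stood in 9 of 11 liver and gut markers, 10 of 13 neural markers, 15 of 22 Hox genes and 18 of 27 secretory-pathway genes with a window. Among D-type cyclins Ccnd3 was highest at 268, 257 and 262 TPM (mean 262 ± 5.63), followed by Ccnd2 at 129, 142 and 108 TPM (mean 126 ± 17.2) and Ccnd1 at 87.5, 85.1 and 96.4 TPM (mean 89.7 ± 5.95), and the order was the same in every culture. Their partner kinase Cdk4 measured 846 ± 25.8 TPM and Cdk6 7.46 ± 1.48 TPM. Of the CDK inhibitors, Cdkn1a (p21) measured 296, 339 and 401 TPM (mean 345 ± 52.9), Cdkn2b 56.5 ± 3.75 TPM and Cdkn2a, the locus of p16 and p19ARF, 35.3 ± 5.93 TPM. The p53 targets and senescence genes were all detected (25 of 25) and summed to 2971, 3058 and 3933 TPM. Hmga1, a chromatin protein of proliferating embryonic cells, measured 499 ± 104 TPM, the cell-death gene Bax 355, 360.0 and 458 TPM (mean 391 ± 58.1) and Mdm2, the ligase that degrades p53, 88.9, 103 and 136 TPM. Of these 25 genes 16 were highest in culture 16, where 26.9% of all detected genes were.

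Receptor and signalling genes were described by RNA level only. Of 39 receptor tyrosine kinases 30 were detected. Axl, the receptor for GAS6, measured 167, 172 and 209 TPM (mean 183 ± 22.8), Ptk7, a pseudokinase of planar cell polarity, 164 ± 15.9 TPM, Fgfr1 150.3 ± 11.6 TPM and Ryk, a WNT co-receptor, 133 ± 4.502 TPM. Pdgfrb at 106, 108 and 94.1 TPM (mean 103 ± 7.41) was higher than Pdgfra in every culture. Ntrk3, a neurotrophin receptor, had the widest range in TPM, with 5.56, 3.7 and 1.29 TPM (9.34, 9.099 and 4.17 CPM). Tie1, Alk, Ltk, Flt3, Musk and Ros1 were below 1 TPM in every culture. Of the RAS family and its regulators 26 of 27 were detected. Hras measured 102 ± 10.7 TPM, Rras 92.7 ± 0.991 TPM, Nras 65.3 ± 5.86 TPM, Rras2 51.2 ± 14.4 TPM, Rit1 46.02 ± 3.09 TPM and Mras 36.1 ± 1.29 TPM. Rras2 varied most, at 45.8, 40.2 and 67.5 TPM, and Rras least of these, at 91.5, 93.1 and 93.3 TPM. Cul3, the scaffold of the ligase that uses LZTR1, measured 102 ± 3.496 TPM and the phosphatase subunit Ppp1ca 470.0 ± 13.3 TPM. All 34 TGF-beta, BMP and activin genes were detected. Among the ligands Tgfb3 was highest at 174, 185 and 192 TPM (mean 184 ± 9.06), with Tgfb1 at 41.2, 37.3 and 48.2 TPM (mean 42.3 ± 5.56) and Tgfb2 at 41.96, 42.8 and 39.5 TPM (mean 41.4 ± 1.702), a pair whose order differed between cultures. The secreted modulator Fstl1 measured 960.4 ± 120.0 TPM, and the BMP-responsive factors Id3 and Id2 352 ± 26.98 TPM and 152 ± 17.9 TPM. Bmp4 measured 76.7 ± 9.08 TPM, and the growth factor gene Gdf6 had the widest range at 7.18, 6.38 and 12.8 TPM.

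Mesenchymal transcription factors were present as a broad set at moderate levels: all 59 examined were detected, at a median of 20.6 TPM. Among the most abundant after Prrx1 were its paralog Prrx2 at 129 ± 14.9 TPM, Twist1 at 92.8 ± 10.8 TPM, Nfix at 75.8 ± 16.8 TPM, Foxp1 at 68.7 ± 2.05 TPM, Twist2 at 65.6 ± 4.18 TPM, Msx1 at 62.2 ± 14.7 TPM, Nfic at 58.7 ± 3.55 TPM, Hic1 at 52.3 ± 2.36 TPM, Tcf4 at 48.6 ± 10.2 TPM and Snai1 at 47.8 ± 6.66 TPM. Twist1, Twist2 and Snai1 are known for the shift of epithelial into mesenchymal cells, and Msx1 for limb and craniofacial outgrowth. Twist2 kept its level in culture 16, at 66.5, 61.1 and 69.3 TPM, while Twist1 was lowest there, at 102, 95.9 and 80.7 TPM. In all, 50 of the 59 were lowest in culture 16, with a median of -0.29 on the log2 scale. Among all detected genes 52% were lowest there, with a median of -0.09. Tcf21, a factor of visceral mesoderm, had the widest range, with 4.34, 4.94 and 2.16 TPM.

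Hox genes of every cluster were expressed, with 33 of 39 detected, and the clusters differed in how much of their sum came from posterior groups. Hox genes lie in 4 clusters, and higher paralog numbers mark more posterior or more distal positions in the body and limbs. Summed levels were 103 ± 5.08 TPM for the Hoxa cluster, 76.2 ± 3.32 for Hoxb, 53.6 ± 2.87 for Hoxc and 80.03 ± 10.3 for Hoxd. Groups 9 to 13 held 88.3% of the Hoxd sum and 61.01% of the Hoxa sum, against 38.9% for Hoxc and 26.1% for Hoxb. The clusters differ in how many genes these groups hold, and in Hoxb they are only Hoxb9 and Hoxb13. The shares are therefore not levels per gene and do not rank the clusters by how posterior they are. Hoxd13, a gene of the distal limb and the genital tubercle, was the highest Hox gene at 42.7, 43.3 and 36.1 TPM (mean 40.7 ± 4.03), and its neighbours Hoxd11 and Hoxd12 measured 10.04 ± 1.83 TPM and 9.62 ± 1.96 TPM. In the Hoxa cluster Hoxa10 was highest at 28.5, 30.6 and 27.2 TPM (mean 28.8 ± 1.68), above Hoxa9 at 14.9 ± 2.1 TPM and Hoxa13 at 9.71 ± 2.703 TPM. In the Hoxb cluster Hoxb9 was highest at 18.3, 18.7 and 18.9 TPM (mean 18.6 ± 0.344), followed by the anterior gene Hoxb2 at 12.2, 12.96 and 16 TPM (mean 13.7 ± 2.02). In the Hoxc cluster Hoxc6 at 13.2, 11.8 and 14.6 TPM (mean 13.2 ± 1.43) and Hoxc10 at 11.6, 8.52 and 10 TPM (mean 10.1 ± 1.56) led. Hoxb8 at 16.01, 13.2 and 6.79 TPM and Hoxd8 at 7.24, 4.09 and 2.76 TPM were lowest in culture 16. Hoxb1 and Hoxd1, genes of the hindbrain end, were below 1 TPM in every culture. Bulk RNA gives a sum over cells, and such a sum cannot tell a few cells with a high level from many with a low one.

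**Figure D3:**
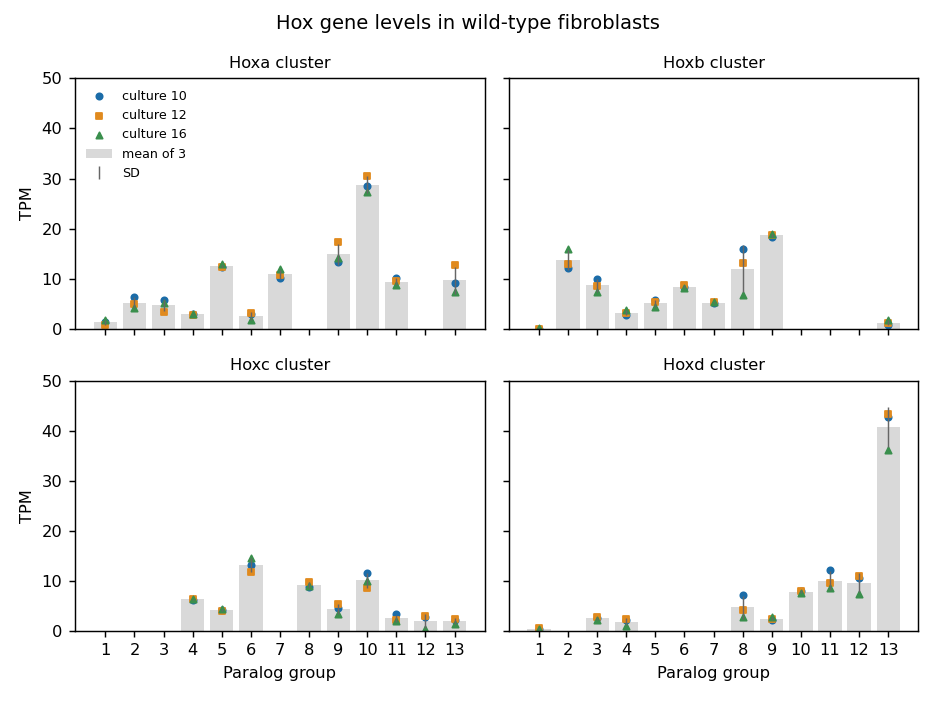
TPM (vertical axis) of each Hox gene by paralog group (horizontal axis), 1 panel per cluster; grey bars are means of 3 cultures with their SD and coloured markers the single cultures. Hoxd13 and Hoxa10 stand highest, and the Hoxb and Hoxc clusters have their transcripts spread over anterior and posterior groups.

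Markers of other cell types were looked for because the cultures come from whole embryonic tissue; in bulk RNA, fewer cells of a type and less RNA per cell cannot be told apart. Of all protein-coding genes 57.1% were detected. The erythroid (42.9%), endothelial (46.7%), fat (50%), liver and gut (53.3%) and cardiac (57.1%) lists lay below or near that share. Neural (66.7%) and epithelial (68.4%) lists lay somewhat above it, so such a count alone says little about a lineage. Skeletal muscle genes included both regulators and fibre proteins, with 16 of 20 detected and sums of 1118, 1074 and 717 TPM. Actc1 measured 323, 290.1 and 208 TPM (mean 274 ± 58.9), Mylpf, a fast-fibre myosin light chain, 228, 225 and 146 TPM (mean 199.6 ± 46.3), and the myogenic regulators Myog and Myod1 83.04, 83.6 and 56.8 TPM (mean 74.5 ± 15.3) and 24.98, 18.7 and 14.7 TPM (mean 19.5 ± 5.18). All 16 detected members were lowest in culture 16, where their median was -0.60 on the log2 scale. Among all detected genes 52% were lowest there, with a median of -0.09. Ckm and Myf6, markers of mature muscle, were below 1 TPM in every culture, with Myf6 listed at 0. Neural and Schwann genes (14 of 21 detected) went the same way, at 513, 425 and 287 TPM, and 12 of 14 were lowest in culture 16, against the same 52%. Fabp7, a fatty-acid carrier of neural progenitors and glia, measured 45.3, 54.98 and 10.6 TPM, and the neuronal genes Stmn2 and Map2 46.9, 44.04 and 21.6 TPM and 18.5, 21.9 and 7.79 TPM. Ncam1, a neural adhesion molecule, measured 139.6, 71.3 and 61.04 TPM, but differed little in counts, at 222, 213 and 197 CPM. Sox1 was below 1 TPM in every culture.

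Blood-lineage genes were higher in culture 16. Globins carried the erythroid list, which summed to 162, 128 and 444 TPM. Hbb-bs measured 55.2, 39.8 and 135 TPM, Hba-a2 46.02, 40.9 and 129 TPM, Hba-a1 35.7, 24.2 and 105 TPM and the embryonic globin Hbb-y 9.55, 7.75 and 29.2 TPM. The alpha-globin genes Hba-a1 and Hba-a2 are near-identical copies, as are Hbb-bs and Hbb-bt, so their division is uncertain. All 6 detected members were highest in culture 16, where 26.9% of all detected genes were. The erythroid factors Klf1 at 0.35, 0.79 and 0.43 TPM and Gata1 at 0.27, 0.18 and 0.6 TPM, and the membrane gene Slc4a1 and the globin Hbb-bh1, stayed below 1 TPM in every culture. All 18 macrophage and blood markers were detected, with sums of 467, 461 and 595 TPM, and 15 of them were highest in culture 16, against the same 26.9%. Lyz2, lysozyme, measured 108, 121 and 171 TPM (mean 133 ± 33.2), the complement genes C1qb and C1qa 59.5 ± 6.19 TPM and 47.3 ± 1.22 TPM, the signalling adaptor Tyrobp 54.2 ± 7.59 TPM and the macrophage receptor Csf1r 15.1 ± 2.95 TPM. Ptprc, the pan-leukocyte surface gene CD45, measured 2.88 ± 0.422 TPM.

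Liver genes set culture 10 apart, while epithelial genes were low in culture 10 and high in culture 16. Genes of fetal liver, yolk sac and gut summed to 321, 838 and 741 TPM, with 8 of 15 detected, and 7 of the 8 were lowest in culture 10, where 26.3% of all detected genes were. Afp, alpha-fetoprotein, measured 178, 360.3 and 356 TPM (mean 298 ± 104), Alb, albumin, 37.1, 183 and 125 TPM (mean 115 ± 73.7), Trf, transferrin, 39.03, 158 and 133 TPM (mean 110.3 ± 62.9) and Ttr, a thyroid hormone carrier, 49.8, 49.1 and 72.2 TPM (mean 57.04 ± 13.2). Ttr did not share the pattern and was highest in culture 16. The apolipoprotein gene Apoa1 ranged most of the list, with 3.93, 30.9 and 15.2 TPM. The liver and gut factors Foxa1, Foxa2, Foxa3 and Cdx2 were below 1 TPM in every culture, and Hnf4a was at 1.24, 1.55 and 2.79 TPM. Epithelial markers (13 of 19 detected) summed to 147, 205 and 249.7 TPM, and 12 of 13 were lowest in culture 10, against the same 26.3%. Of the 13, 8 were highest in culture 16, where 26.9% of all detected genes were. The list medians were -0.85, 0.02 and 0.55 on the log2 scale against the other 2 cultures. Some of the differences between cultures 10 and 12 were very small, as for Krt18 and Krt8. The keratins of simple epithelium Krt18, Krt8 and Krt19 measured 50.7, 51.04 and 74.3 TPM, 38.5, 38.7 and 57.9 TPM and 18.01, 20.6 and 32.7 TPM, and the basal keratin Krt14 7.1, 25.1 and 16.98 TPM. Krt15 had the widest range, with 1.48, 6.97 and 2.2 TPM, and Grhl2 and Ovol1, epithelial factors, were below 1 TPM in every culture.

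Of the remaining lists, smooth muscle and cartilage markers had the highest sums. Endothelial markers summed to 67.6, 69.9 and 73.5 TPM with 7 of 15 detected (46.7%, where 57.1% of all protein-coding genes were). Flt1 led at 27.2 ± 3.42 TPM, and Plvap, Sox17, Sox18 and Tie1 were below 1 TPM in every culture. Smooth muscle and pericyte markers summed to 1107, 1224 and 1113 TPM, led by Actg2, Mcam at 115, 125 and 159 TPM, Pdgfrb and Smtn at 90.9, 86.1 and 88.2 TPM. Cartilage and bone markers summed to 601, 599.9 and 779 TPM, and were led by Spp1, osteopontin, at 335, 358 and 469.6 TPM and Col2a1. Of these markers, 9 of 15 detected members were highest in culture 16, where 26.9% of all detected genes were. Ibsp, bone sialoprotein, measured 22.7, 21.2 and 18.9 TPM, and Bglap, osteocalcin, was below 1 TPM in every culture. Fat markers summed to 61.4, 51.9 and 60.5 TPM; Lpl measured 15.4, 15.7 and 16.99 TPM, and Adipoq, Lep, Cfd and Ucp1, genes of mature fat cells, were listed at 0. Mesothelial and kidney stroma markers summed to 65.8, 63.05 and 61.5 TPM, led by Krt19 and Foxd1 at 13.8, 8.48 and 8.56 TPM. Cardiac markers summed to 453, 410.1 and 351 TPM, mostly from Actc1, which skeletal muscle also makes, and Tnnt2 at 92.3, 89.4 and 91.8 TPM. Only 2 of 19 pluripotency and germ cell genes were detected, Klf2 at 35.9, 27.3 and 35.4 TPM and Sox2 at 3.9, 4.12 and 1.62 TPM, both of which other cells express. Pou5f1 (Oct4), Zfp42, Dppa3, Dppa4, Dppa5a and Fgf4 were listed at 0 in every culture; for Pou5f1 a count of 0 allows up to 0.655, 0.844 and 0.806 TPM. Several genes stand in more than 1 list, such as Actc1, Des and Krt19, so the sums are not independent.

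**Figure D4:**
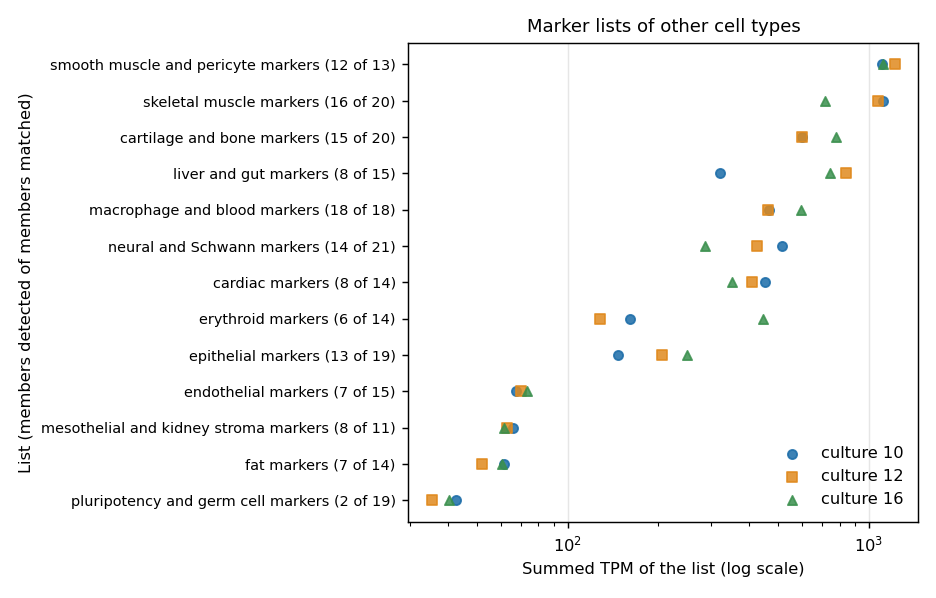
Summed TPM of each marker list (horizontal axis, log scale) in the 3 cultures, with the number of members detected in all cultures beside each list's name. Endothelial, fat and mesothelial sums lie close together in the 3 cultures, whereas erythroid, liver, epithelial, neural and skeletal muscle sums are spread.

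Sex-linked genes divided the cultures. Xist, the RNA that coats the inactive X chromosome of female cells, measured 98.4, 0.02 and 95.1 TPM. The Y-linked genes showed the reverse, with Eif2s3y at 0, 54.5 and 0 TPM, Ddx3y at 0, 38.99 and 0 TPM, Kdm5d at 0, 13.2 and 0 TPM and Uty at 0, 7.82 and 0.04 TPM. Culture 12 thus carried Y-linked transcripts and almost no Xist, and cultures 10 and 16 the opposite. By these transcripts culture 12 was male and cultures 10 and 16 female, so culture 12 did not share an embryo with either. Whether cultures 10 and 16 shared an embryo, or any of the cultures a litter, cannot be told from these values.

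Most genes varied little between the cultures. The median coefficient of variation of detected genes was 10.4%, where counting alone would give 5.54%, and 6.08% over cultures 10 and 12 alone. It was 17.98% from 1 to 10 TPM, 8.87% from 10 to 100, 5.81% from 100 to 1000 and 3.64% above. Of 8795 genes at a mean of 10 TPM or more, 124 (1.41%) differed at least 2-fold between the highest and lowest culture, and 31 of these were predicted genes or pseudogenes. Apart from the sex-linked genes, the widest ranges among named genes were those of Snurf, Apoa1, Ahsg, Igfbp1, Apoa2, Fabp7, Alb, Apoc2 and Lbhd1. Snurf measured 34.1, 0 and 23.2 TPM; it shares its transcript with Snrpn, which measured 24.6, 23.2 and 16.3 TPM, and its values rest on 9.9, 0 and 5.23 expected counts, so the 0 in culture 12 may not mean absence. Ahsg, fetuin-A, a plasma protein of fetal liver, measured 6.8, 46.6 and 19.4 TPM, Apoa2 5.7, 32.5 and 20.1 TPM and Apoc2 4.66, 22.3 and 17.6 TPM, all lowest in culture 10 as Alb was. Lbhd1, a gene of little-known function, measured 4.65, 20.7 and 21.4 TPM, while the 7.04, 8.39 and 9.67 CPM cover a far smaller range. The count of genes with a 2-fold range was 44 without culture 16, 84 without culture 10 and 85 without culture 12.

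Culture 16 departed from the others more often than cultures 10 and 12 did. It was at least 1.5-fold above both others in 88 genes (1%) and below both in 176 (2%) of the 8795. Culture 10 was above both others in 17 (0.193%) and below in 28 (0.318%), and culture 12 in 27 (0.307%) and 21 (0.239%). After each culture was rescaled by its median ratio to the mean profile, which moved the cultures by 0.0038, 0.045 and -0.060 on the log2 scale, the counts for culture 16 were 139 above and 107 below, so the balance of directions turns on the scaling. The 7 lists with the lowest medians in culture 16 were, from the lowest, neural and Schwann markers at -0.93, skeletal muscle at -0.60, pluripotency and germ cell markers at -0.55 (2 genes), cadherins at -0.38, collagen chains at -0.31, mesenchymal transcription factors at -0.29 and imprinted genes at -0.27. The 5 highest were erythroid markers at 1.65, epithelial markers at 0.55, liver and gut markers at 0.35, macrophage markers at 0.28 and p53 targets at 0.27. Liver and gut markers did not peak in culture 16: their median was 0.89 in culture 12 and -1.80 in culture 10. Of their 8 detected genes, 6 were highest in culture 12 and 2 in culture 16, where 45.5% and 26.9% of all detected genes were. Rescaling moved each of the culture 16 medians named here by less than its own size, as from -0.27 to -0.18 for imprinted genes, so no sign could change. The kept signs therefore add no support. Whether the levels of foreign cell markers and of fibroblast genes in culture 16 are linked was not tested.

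**Figure D5:**
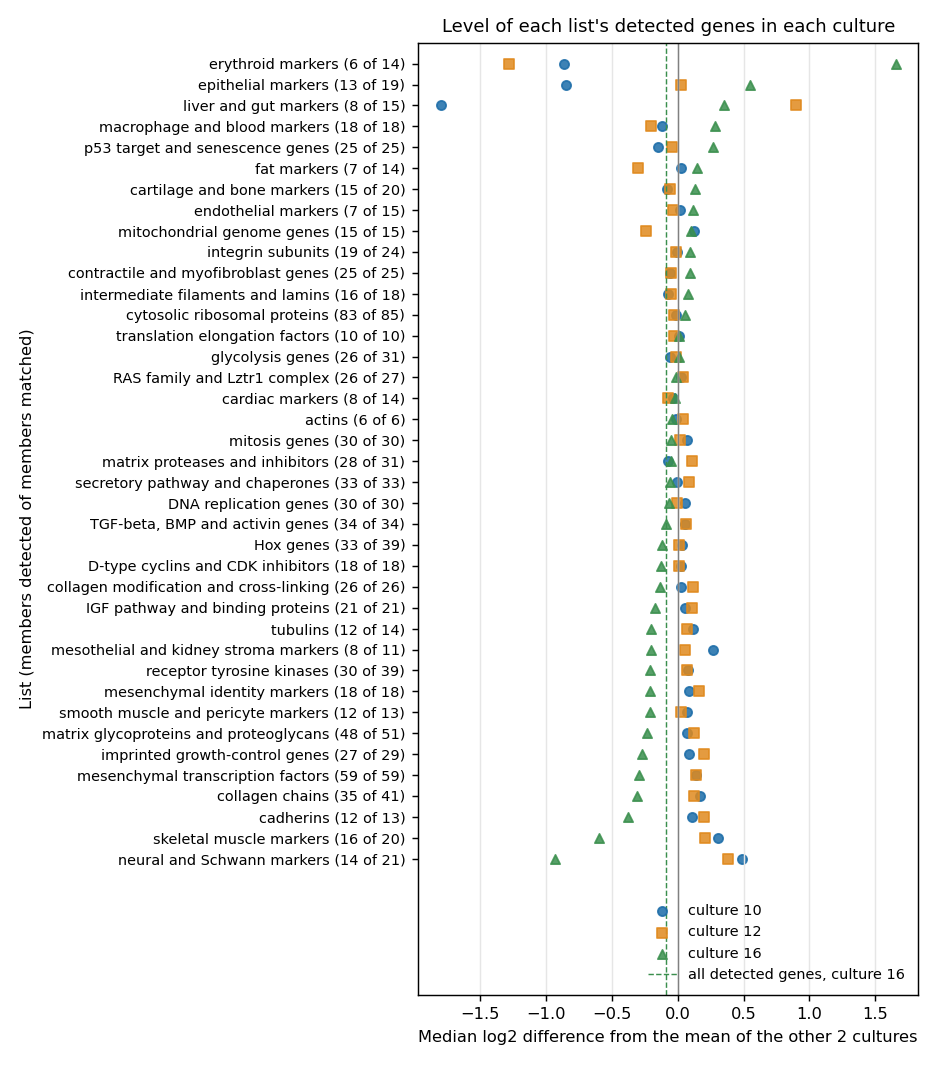
Median log2 difference (horizontal axis) between each culture and the mean of the other 2 over the detected genes of each list, for lists with at least 6 detected genes, ordered by culture 16; the dashed line is the median of all detected genes in culture 16 (-0.09). Erythroid markers lie farthest above and neural and skeletal muscle markers farthest below in culture 16, and liver and epithelial markers lie low in culture 10.

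At the other end were genes that barely varied in TPM. The 12 smallest coefficients of variation among genes at 10 TPM or more were those of Rplp0, Rnf145, Nqo1, Pard6g, Ehmt2, Ptma, Atp5j, Spns1, Ccnf, Akr1a1, Srp54c and Ahcyl1. Ptma, the nuclear protein prothymosin alpha, measured 2478, 2474 and 2487 TPM, Ehmt2, the histone H3 lysine methyltransferase G9a, 89.6, 89.3 and 89.8 TPM, and Atp5j, a subunit of ATP synthase, 338, 336 and 337 TPM. Nqo1, a quinone reductase driven by NRF2, measured 10.5, 10.4 and 10.4 TPM, and Ccnf, a cyclin of S and G2 phases, 31.2, 31.2 and 31.4 TPM. A spread estimated from 3 values is itself imprecise, so the order among these genes carries little weight. The common reference genes Gapdh, Actb and Ppia, by comparison, had coefficients of variation of 4.41%, 9.29% and 2.65%.

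Genes that the annotation classes as lincRNA, antisense, processed transcript or another long non-coding class were ranked, without its ribosomal RNA and short RNA classes. These classes were taken as given, and whether each gene is a true long non-coding RNA was not checked. H19 was followed by Gm10076 at 1161 ± 40.9 TPM, Rian, Meg3 and Gas5, a host gene of small nucleolar RNAs, at 526, 489 and 535 TPM (mean 516 ± 24.1). The next were Cct6a, which the annotation used here lists as a processed transcript, at 378 ± 23.9 TPM, AY036118 at 266, 146 and 384 TPM, 2410006H16Rik at 252 ± 9.54 TPM, AI506816 at 217 ± 9.47 TPM and 1110038B12Rik at 209.7 ± 8.82 TPM. H19, Rian and Meg3, 3 of the 5 highest, come from imprinted domains. AY036118 was the only one of the 10 with a range above 2-fold, lowest in culture 12.

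The promoter windows of detected and other genes differed in composition. Detected genes had a median of 7.33 CpG dinucleotides per 100 bases (10027 genes with a window), and genes that were not detected 1.33 (10150 genes). The letters TATAAA between 40 and 20 bases before the start, on the gene's strand, occurred in 130 detected genes (1.3%) and in 403 that were not detected (3.97%), against 2.64% of all matched genes. Macrophage, erythroid and liver marker lists had medians of 1.33 CpG per 100 bases, the secretory pathway genes 10 and the cytosolic ribosomal genes 7.33. These shares describe letters in a fixed window, and where a gene had several annotated starts any one of them counted. For CpG the highest value over a gene's windows was taken, so the medians are of such highest values and can rise with the number of starts.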

How the data were processed

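Messenger RNA was sequenced in 6 cultures, and the 3 wild-type libraries were used. Per the file headers, the authors deposited RSEM gene-level tables of expected counts, TPM (scaled for effective length and library size) and FPKM. Per the submitters' processing notes, the tools were RSEM 1.3.1 and DESeq2 and the build mm10. Aligner, annotation and strand setting were not given in the sources used here. In the deposited tables, expected counts share reads that match several genes, and 7.53% to 8.04% of values were not whole. Deposited TPM was the measure, and deposited FPKM served only as an alternative for detection. Overlapping genes and near-identical copies were not resolved further.

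Symbols, classes and mm10 coordinates came from GENCODE vM21 by Ensembl number (51633 matched, 193 not). Means, SD, coefficients of variation and ranges on log2(TPM + 0.1) were computed with pandas 2.3.3 and numpy 2.4.6, and the 1.5-fold and detection steps were tested on simulated counts. Fold ranges include the pseudocount of 0.1. Counting floors are 3 counts. Copies of mitochondrial genes were aligned with blastn; promoter windows are RefSeq sequences on GRCm38.p6, the assembly of mm10.

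The 41 gene lists (943 entries, 942 matched, Ahsp not analysed here), and the choice to describe the wild-type cultures, were made with earlier results of these data known; which cultures are wild type came from the labels. The naming rule takes the markers and Lztr1, the 25 most abundant genes, the 12 widest and 12 smallest spreads at 10 TPM or more, the 10 most abundant long non-coding genes, and per list its 4 highest members, its widest range, members below 1 TPM and families. Other list members named were chosen after their values were seen. Alternatives were other thresholds, units, scalings and gene sets, and leaving out each culture. The heterozygous libraries were not used here, and a few genes that the rule names are not reported here.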

Additional observations from a re-analysis of the deposited data

How the results depend on the processing

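The count of detected genes kept within 1.5 times 13283 under all its alternatives, from 10200 at 5 TPM to 15291 at 1 TPM in any culture. In expected counts, which are not corrected for length, 826 genes held 50% of the total in place of 356, the 25 most abundant genes held 10.8%, mitochondrial genes 1.42%, cytosolic ribosomal protein genes 5.53% and collagen genes 3.32%, so shares of short and long genes depend on the unit by construction. Without mitochondrial genes the top 25 held 12.3%, and among protein-coding genes alone ribosomal genes held 19.2%. The median coefficient of variation was 21.5% over every gene above 0, and 6.08% to 10.7% when 1 culture was left out, lowest without culture 16. The count of genes with a 2-fold range was 1367 at a mean of 1 TPM or more, and 44 to 85 with 1 culture left out, lowest without culture 16; with effective lengths of at least 100 bases, an alternative chosen after seeing the data, it was 112. Also chosen after seeing the data, other scalings of the 1.5-fold counts gave 139 genes above and 107 below in culture 16 with median ratio scaling, and, in expected counts scaled to library size, 106 below in culture 16, 8 above in culture 10 and 15 above in culture 12. Leaving out 1 culture gave 13482 to 13712 detected genes and 345 to 365 genes holding 50% of TPM, both within 1.5 times the value over 3 cultures, and moved the shares of the top 25, mitochondrial, ribosomal and collagen genes to 12.6% to 12.9%, 2.99% to 3.27%, 17.8% to 18.2% and 0.962% to 1.10%. Detected members of the 41 lists moved by more than 1.5 times in 2 of 164 alternatives: endothelial markers at 0.5 TPM (11) and sex-linked genes without culture 12 (1). No paired analysis was possible because all cultures belong to 1 group. Depth limits genes near 1 TPM, whose median coefficient of variation of 17.98% compares with 11.5% from counting alone.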
